A study of Mus musculus with 6 samples.

Results

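The genes described here are the parts of the cilium that carry cargo and the parts that make it beat. All symbols of the count table that begin with Ift, Bbs, Dnah, Dnaic or Dnal followed by a number, together with Dnali1, were taken, which gave 38 genes of 24421. Of these, 22 are transport genes, with 14 intraflagellar transport (IFT) genes and 8 Bardet-Biedl syndrome (BBS) genes, and 16 are axonemal dyneins. RNA was sequenced from cochlear explants of neonatal mice at postnatal day 2, labelled WT. After 12 h of culture the neomycin group was exposed to neomycin, an aminoglycoside antibiotic that kills hair cells (HCs), at 1 mM over 6 h, and then kept for 5 more days with 10 μM of EdU, a label for DNA synthesis. Each group had 3 samples, and 6 to 8 cochleae were pooled for each of them. The control group is taken here, from its treatment label alone, as explants without neomycin, since the protocol text of all 6 samples names the neomycin exposure. An explant holds the sensory epithelium with surrounding tissue, so fewer cells of a type and less RNA per cell cannot be told apart in these values.

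A cilium is built on a scaffold of microtubules, the axoneme. The IFT trains move tubulin and other cargo along it, with the IFT-B complex on the way to the tip and the IFT-A complex on the way back, and the BBSome, a coat made of BBS proteins, moves membrane proteins in and out. Axonemal dyneins are the motors that bend motile cilia, arranged as outer and inner arms of heavy, intermediate and light chains. Each HC of the neonatal cochlea has 1 true cilium, the kinocilium, beside its stereocilia. It helps to orient the hair bundle and is lost as the mouse cochlea matures. Supporting cells (SCs) and most other cells of the explant carry a primary cilium, which uses the same transport machinery and normally lacks dynein arms.

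Regulatory factor X (RFX) proteins bind the X-box, and forkhead proteins such as FOXJ1 drive many genes of motile cilia. Promoter sequences from RefSeq (GRCm38.p6, 250 bases before to 50 bases after the start, on the gene's strand) were found for 35 of the 38 genes, 19 transport genes and all 16 dyneins. The X-box is made of a pair of short arms facing each other across a few bases, and was searched on both strands with a fixed spacing. Arm pairs with another spacing or other letters were not counted. Such pairs stand, for example, in the promoters of Dnah6, Dnah7a, Dnah7b, Dnaic1, Dnaic2 and Ift57, so the shares depend on the pattern searched. The X-box as searched was present in 5 of the 19 transport promoters (26.3%) and in 1 of the 16 dynein promoters (6.25%). Over all 27025 genes with such a promoter entry, some of them outside the count table, the share was 2.49%. These genes are meant by all promoters below. Every match is shown, since these are the letters by which both classes of promoter were compared, with 8 bases on each side and the X-box in capitals.
Bbs1: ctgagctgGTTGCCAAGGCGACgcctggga
Bbs4: ctcagctgGTCGCCCGGGAAACggtcggct
Bbs7: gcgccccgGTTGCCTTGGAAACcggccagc
Ift22, first: ctgtcaggGTTTCCTGGGCTACtgcgcagc
Ift22, second: tgttcccgGTCGCCGTGGAAACtgaccagc
Ift57: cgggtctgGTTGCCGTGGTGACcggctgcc
Dnah17: acgcccttGTCACCAGCGCAACcacagata
These windows lie, in that order, at chr19:4906605-4906634 (minus strand), chr9:59353464-59353493 (minus), chr3:36613489-36613518 (minus), chr5:136908079-136908108 (plus), chr5:136908109-136908138 (plus), chr16:49699199-49699228 (plus) and chr11:118129357-118129386 (minus).

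The arm motif GTTGCC, a single arm of the X-box that was also searched on both strands and can fall inside an X-box, was present in 8 of the 19 transport promoters (42.1%), in 4 of the 16 dynein promoters (25.0%) and in 14.1% of all promoters. In the 250 bases before the start alone these shares were 21.1%, 25.0% and 11.8%, so the transport genes were then not above the dyneins. The arm motif is shown, in capitals, for genes whose level passed the test described next and which had no match to the X-box as searched.
Dnaic2: ggttgctaGGCAACtggtaaac
Dnah7b: ggagcacaGTTGCCacccaccc
Ift27: tgatgatgGTTGCCaggagcct
Ift172: gcactcacGTTGCCtgtgcgtc
Bbs5: gccggcgcGTTGCCtt
The Dnaic2 window (chr11:114727385-114727406, plus strand) reads the motif on the other strand. The others are at chr1:46066682-46066703 (plus), chr15:78174077-78174098 (minus), chr5:31291101-31291122 (minus) and chr2:69647205-69647220 (plus), where the promoter entry of Bbs5 ends. The forkhead motif GTAAACA, on both strands, was in the Dnah17 promoter, in none of the 19 transport promoters and in 4.05% of all promoters. The Dnah8 promoter, of the dynein gene with the largest fall, held none of these letters. Its 250 bases before the RefSeq start are 17:30626686-30626935, inside the gene as annotated in GENCODE, which begins at 17:30624354. Those of Dnah17, 11:118129220-118129469 on the minus strand, also lie inside the annotated gene, which reaches 11:118130634. The bases before these outer starts were not searched. All of these are matches of letters only, and no test was run on them.

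Total counts per sample ran from 50471116 to 66068108. Levels are CPM, counts scaled to a common library size with TMM factors, and neomycin was compared with control by edgeR's quasi-likelihood test over 15988 genes with Benjamini-Hochberg adjustment. A gene passed at an adjusted p under 0.05, and is called differentially expressed when the fold change was also over 1.5. Nothing in the labels says that the pools came from separate litters or cultures, so p-values measure the spread between these samples. Of all genes tested, 29.0% passed, 12.9% higher and 16.1% lower after neomycin, and 8.84% were differentially expressed. Of the genes that passed, 44.5% were higher, and 29.7% when libraries were scaled by their total counts alone. The explants held markers of both HCs and SCs. Of the 30 HC markers 29 had a row under their symbol and were tested, and of the 16 SC markers all 16. Of the HC markers 25 fell past the test. The summed level of all 29 was 1274 to 1468 CPM in the control samples and 557 to 675 CPM in the neomycin samples. Ocm alone stood at 303 ± 73 CPM in control and 28.6 ± 2.9 CPM after neomycin (SD, n = 3 each).

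Of the 38 genes, 37 were tested, and Dnah6 was left out by the filter on low counts. After neomycin 8 of the 37 were higher and 5 lower, 35.1% in all beside the 29.0% of all genes tested. The changes of the dyneins spanned a wider range than those of the transport genes. Counts per sample had a median of 77.5 over the tested dyneins and 1356.5 over the transport genes. A small change could thus pass more easily in a transport gene than in most dyneins. The part of count depth in the wider range was not tested. Among the 22 transport genes 7 rose and 2 fell, 40.9% in all, and 0 were differentially expressed with edgeR, DESeq2 or limma-voom. At an unadjusted p under 0.05 there were 9 higher and 3 lower by each of these tools. The share of all genes at that unadjusted threshold is not given, here or for the lists below. It cannot be under the 29.0% that passed after adjustment, so these unadjusted counts are not set against all genes. Among the 15 tested dyneins 1 rose and 3 fell, 26.7% in all, and each of these 4 was differentially expressed, beside 2.24% of all genes higher and 6.60% lower by that rule. Control and neomycin values were fully apart for 13 of the 22 transport genes and 8 of the 15 dyneins, beside 43.5% of all genes tested.

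The median log2 fold change was 0.17 over the transport genes, with 16 of 22 above 0, and -0.17 over the dyneins, with 6 of 15 above 0. The median of all genes tested was -0.00 on the same scale. The dynein median was 0.08 after removal of a trend of the fold change on gene length, and 0.01 without control replicate 1. The transport median was above 0 in every alternative, with 0.10 under total count scaling and 0.13 after the length correction. The difference between the classes was not tested, since genes of a class are not replicates.

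**Figure D1:**
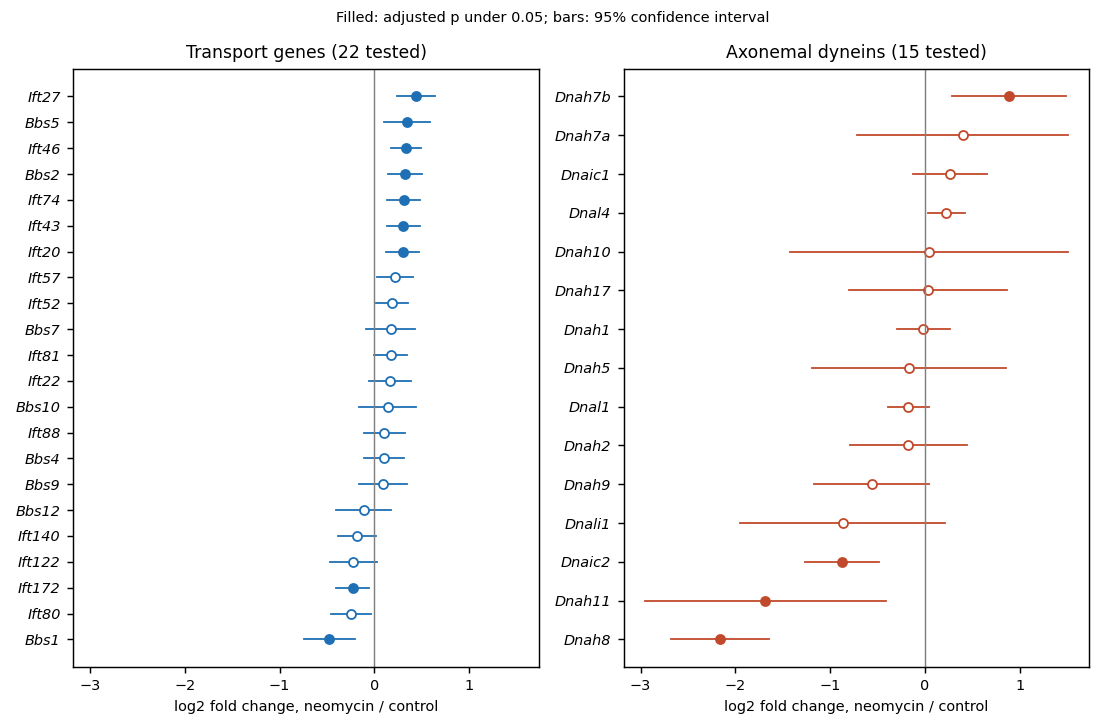
Log2 fold change (neomycin over control, x axis) of the 22 transport genes (left) and the 15 tested axonemal dyneins (right), with 95% confidence intervals from edgeR and filled points for an adjusted p under 0.05. The transport genes lie between -0.48 (Bbs1) and 0.44 (Ift27), and the dyneins between -2.16 (Dnah8) and 0.89 (Dnah7b) with wider intervals.

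Among the outer arm heavy chains, which hold the motor domains of the outer row, Dnah8, best known from sperm flagella, changed most. Dnah8 (ENSMUSG00000033826, 17:30624354-30877365, plus strand) had 4.22, 3.83 and 4.96 CPM in control replicates 1, 2 and 3 and 1.02, 1.15 and 0.726 CPM in neomycin replicates 1, 2 and 3. Every neomycin sample was below every control sample, with means of 4.34 ± 0.57 and 0.965 ± 0.22 CPM (SD, n = 3 each). The gene was 4.48-fold lower after neomycin, with a log2 fold change of -2.16 (SE 0.24, 95% interval -2.68 to -1.65, adjusted p = 7.22e-05, edgeR). It passed in all 18 alternatives, where its log2 fold change ran from -2.31 to -1.85. The counts behind these levels were 200 to 291 in the control samples and 39 to 68 in the neomycin samples. Its exons overlap 1700097N02Rik, on the opposite strand, over 207 bp, and that gene had 0 to 6 counts in any sample. They also overlap the antisense gene AC165951.2 over 443 bp, for which no count was analysed here.

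Dnah11, the partner heavy chain of the outer arm near the base of respiratory cilia, was much lower in level (12:117877982-118199043, minus strand). It had 0.435, 0.441 and 0.231 CPM in the control samples and 0.075, 0.186 and 0.074 CPM in the neomycin samples. The groups did not overlap, but the neomycin values rest on 4, 11 and 4 counts. The log2 fold change was -1.68 (SE 0.59, adjusted p = 0.0473, edgeR), and DESeq2's adjusted p was 0.0662 and limma-voom's 0.0504. Its adjusted p rose to 0.150, 0.148, 0.134, 0.0503 and 0.153 without control replicate 1, control replicate 2, neomycin replicate 1, neomycin replicate 2 and neomycin replicate 3 respectively, and was 0.0928 after the length correction, with a log2 fold change of -1.43. Exons of Dnah11 and Cdca7l overlap over 642 bp on opposite strands, and Cdca7l stood at 7.48 ± 0.48 and 6.81 ± 0.16 CPM (SD, n = 3 each) and a log2 fold change at -0.14 (adjusted p = 0.445, edgeR).

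The 3 other outer arm heavy chains did not pass. Dnah9, the outer arm chain of the distal part of respiratory cilia, had 1.67, 1.94 and 1.76 CPM in control and 1.56, 1.12 and 0.949 CPM after neomycin. All 3 neomycin values were below the control values, with a log2 fold change of -0.56 (SE 0.28, adjusted p = 0.151, edgeR). Dnah5, the core outer arm chain of respiratory and nodal cilia, had 1.00, 0.575 and 0.498 CPM in control and 1.02, 0.508 and 0.335 CPM after neomycin. Replicate 1 was the highest in both groups and the groups overlapped, with a log2 fold change of -0.17 (SE 0.47, 95% interval -1.19 to 0.85, adjusted p = 0.816, edgeR). Dnah17, known as an outer arm chain of sperm flagella, had 1.17, 1.46 and 1.14 CPM in control and 1.79, 0.576 and 1.51 CPM after neomycin. Its neomycin values stood on both sides of the control values, and the log2 fold change was 0.04 (SE 0.38, adjusted p = 0.955, edgeR). Summed over the 5 outer arm heavy chains, the level was 8.49, 8.24 and 8.59 CPM in control and 5.46, 3.54 and 3.59 CPM after neomycin. Dnah8 held about as much of the control sum as the other 4 together, so the sum follows it.

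The inner arm heavy chains, which shape the bend of the beat, held no gene that fell past the test. Dnah7b (1:46066315-46373546, plus strand) had 1.15, 1.38 and 0.907 CPM in control and 2.58, 2.02 and 1.77 CPM after neomycin. Every neomycin sample was above every control sample, and the gene was 1.85-fold higher, with a log2 fold change of 0.89 (SE 0.28, adjusted p = 0.0309, edgeR). Its adjusted p was 0.0658, 0.0699, 0.106 and 0.0740 without control replicate 1, control replicate 3, neomycin replicate 1 and neomycin replicate 2. Of the 50-base words in its transcripts, 48.4% are shared with another gene, 38.5% with Dnah7c, which had no row under that symbol in the count table. Reads of these copies may have been split or dropped in the counting, so the level of Dnah7b is uncertain. Dnah7a, with 40.3% of its words shared, 30.6% with Dnah7b, had 0.435, 0.441 and 0.391 CPM in control and 0.565, 0.203 and 0.912 CPM after neomycin. Its neomycin values lay on both sides of the control values (log2 fold change 0.40, SE 0.51, adjusted p = 0.595, edgeR).

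Dnah1, an inner arm chain best known from sperm flagella, was the heavy chain with the highest level, at 7.25, 7.25 and 6.51 CPM in control and 7.25, 6.78 and 6.76 CPM after neomycin. The groups overlapped and the log2 fold change was -0.02 (SE 0.13, 95% interval -0.29 to 0.26, adjusted p = 0.942, edgeR). Dnah2 had 1.17, 1.25 and 1.16 CPM in control and 1.05, 1.05 and 1.06 CPM after neomycin, a small gap without overlap (log2 fold change -0.17, SE 0.29, adjusted p = 0.680, edgeR). Dnah10 stood at 0.261, 0.211 and 0.125 CPM in control and 0.0941, 0.102 and 0.428 CPM after neomycin, with neomycin replicate 3 alone above the control values (log2 fold change 0.04, SE 0.68, adjusted p = 0.969, edgeR). Dnah6 had 7, 12 and 1 counts in the control samples and 7, 6 and 13 in the neomycin samples, too few for the test.

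The intermediate chains sit at the base of the outer arm and are needed for its assembly. Dnaic2 (11:114727408-114757889, plus strand) had 4.30, 4.20 and 4.38 CPM in control and 2.64, 2.20 and 2.18 CPM after neomycin. The control samples were close together and the neomycin samples all lower, with means of 4.29 ± 0.090 and 2.34 ± 0.26 CPM (SD, n = 3 each). Dnaic2 was 1.84-fold lower (log2 fold change -0.88, SE 0.18, 95% interval -1.27 to -0.48, adjusted p = 0.00430, edgeR), and passed in all 18 alternatives. Its partner Dnaic1 had 2.81, 3.07 and 3.10 CPM in control and 3.43, 3.93 and 3.39 CPM after neomycin. The Dnaic1 groups did not overlap either, but in the other direction, and the difference did not pass (log2 fold change 0.26, SE 0.18, adjusted p = 0.296, edgeR).

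Of the 3 light chain genes 0 passed with edgeR, DESeq2 or limma-voom, and 1, Dnal4, had an unadjusted p under 0.05. Dnal4 had 36.0, 31.9 and 40.4 CPM in control and 43.2, 42.6 and 40.9 CPM after neomycin (log2 fold change 0.23, SE 0.09, adjusted p = 0.0754, edgeR). Control replicate 3 lay next to the neomycin values, and without it the adjusted p was 0.0122. Dnal1, a light chain that binds the outer arm motor, had 31.5, 32.7 and 28.3 CPM in control and 30.4, 27.3 and 24.2 CPM after neomycin, with overlap (log2 fold change -0.17, SE 0.10, adjusted p = 0.204, edgeR). Dnali1, a light intermediate chain of inner arms, had 0.449, 0.288 and 0.890 CPM in control and 0.320, 0.271 and 0.298 CPM after neomycin. Its control values were spread widely, within and above the range of the neomycin values, and the log2 fold change was -0.87 (SE 0.50, adjusted p = 0.210, edgeR).

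**Figure D2:**
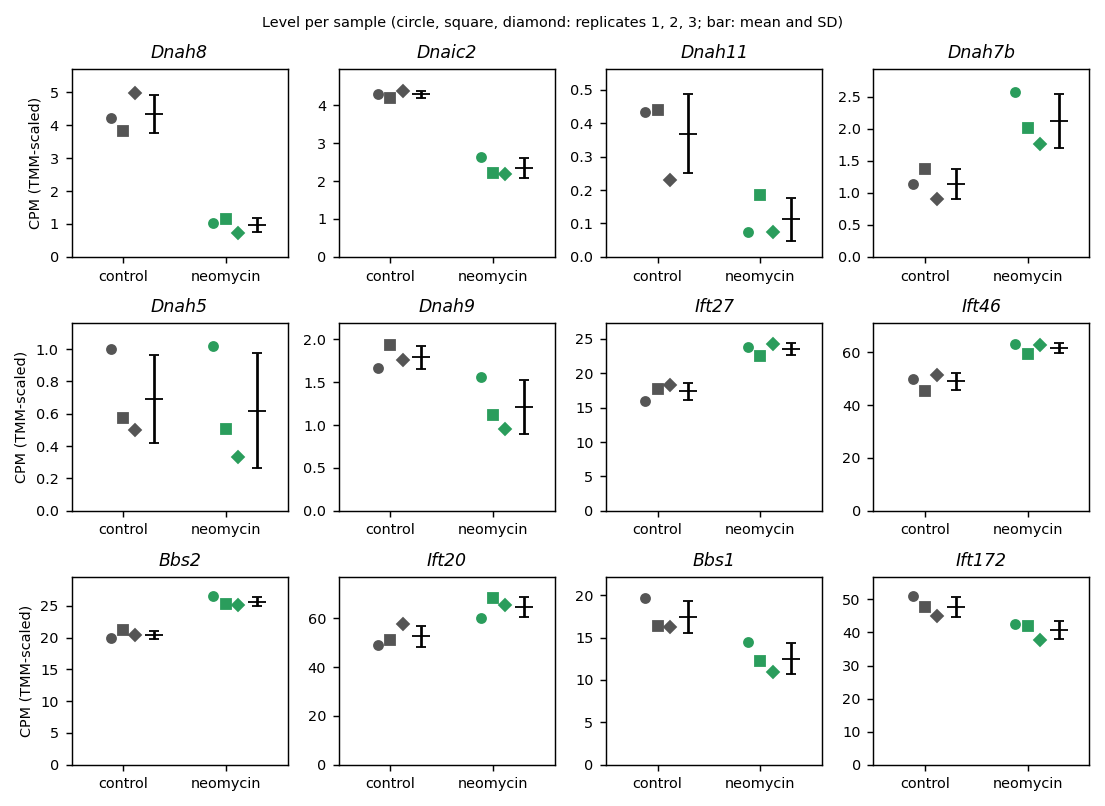
Level in CPM (y axis, from 0) of 12 genes in the 3 control and the 3 neomycin samples, 1 point per sample with replicates 1, 2 and 3 as circle, square and diamond, and the mean with its SD as the bar. Dnah8, Dnaic2, Dnah11, Bbs1 and Ift172 lie lower after neomycin without overlap, Dnah7b, Ift27, Ift46, Bbs2 and Ift20 higher without overlap, Dnah9 lower without passing the test, and the groups of Dnah5 overlap.

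In the IFT-B complex, with 11 tested genes, 4 rose and 1 fell. Ift27, a small GTPase of the train that also helps the BBSome leave the cilium (15:78159463-78174107, minus strand), had 16.0, 17.7 and 18.3 CPM in control and 23.8, 22.6 and 24.2 CPM after neomycin. The groups were well apart, with means of 17.4 ± 1.2 and 23.5 ± 0.85 CPM (SD, n = 3 each). Ift27 was 1.36-fold higher (log2 fold change 0.44, SE 0.09, adjusted p = 0.00417, edgeR), the largest change of a transport gene upwards. Ift46, a core IFT-B subunit (9:44767908-44793447, plus strand), had 50.02, 45.5 and 51.6 CPM in control and 63.0, 59.4 and 62.6 CPM after neomycin. It was 1.26-fold higher without overlap (log2 fold change 0.33, SE 0.07, adjusted p = 0.00609, edgeR). Ift27 and Ift46 passed in all 18 alternatives, and so did Bbs2 of the BBSome.

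Ift74, which binds tubulin as a pair with Ift81, had 26.0, 24.8 and 25.3 CPM in control and 30.3, 33.5 and 30.5 CPM after neomycin. All neomycin values were higher (log2 fold change 0.31, SE 0.08, adjusted p = 0.0141, edgeR), and the adjusted p was 0.0541 without control replicate 2 and 0.0846 without neomycin replicate 2. Ift20, which also works at the Golgi in sorting membrane proteins to the cilium, had 49.1, 51.1 and 57.6 CPM in control and 60.0, 68.4 and 65.4 CPM after neomycin. The gap between the groups was narrow (log2 fold change 0.30, SE 0.08, adjusted p = 0.0172, edgeR), and the adjusted p was 0.0565, 0.0721, 0.0957 and 0.0533 without control replicate 1, control replicate 2, neomycin replicate 2 and neomycin replicate 3. Ift172, a large peripheral subunit near the tip turnaround, had 50.9, 47.7 and 44.9 CPM in control and 42.5, 42.1 and 37.7 CPM after neomycin. It was lower in all 3 neomycin samples (log2 fold change -0.23, SE 0.08, adjusted p = 0.0451, edgeR). Its adjusted p was 0.164, 0.116, 0.100 and 0.182 without control replicate 1, control replicate 2, neomycin replicate 2 and neomycin replicate 3.

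The other 6 IFT-B genes did not pass. Ift57, Ift52, Ift81, Ift22 and Ift88 had log2 fold changes of 0.22, 0.18, 0.17, 0.16 and 0.11, with adjusted p of 0.0773, 0.0919, 0.128, 0.247 and 0.460 (edgeR). Ift80 was at -0.25 on the same scale (adjusted p = 0.0714, edgeR). Ift88, whose loss removes cilia altogether in mice, had 14.4 ± 1.0 CPM in control and 15.5 ± 1.0 CPM after neomycin (SD, n = 3 each), and the 95% interval of its log2 fold change ran from -0.11 to 0.33. Leaving out control replicate 3 brought Ift52, Ift57 and Ift81 past the threshold (adjusted p = 0.0288, 0.0487 and 0.0491), and leaving out neomycin replicate 1 brought Ift80 past it (0.0283).

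In the IFT-A complex, Ift43 rose and the larger subunits did not pass. Ift43 had 30.9, 30.04 and 34.0 CPM in control and 37.8, 40.9 and 38.7 CPM after neomycin. The groups did not overlap (log2 fold change 0.31, SE 0.08, adjusted p = 0.0139, edgeR), and the adjusted p was 0.0645 without control replicate 2 and 0.0770 without neomycin replicate 2. Ift122 and Ift140, core subunits of the complex, had log2 fold changes of -0.22 (adjusted p = 0.165) and -0.18 (adjusted p = 0.150, edgeR), and Ift122 had an adjusted p of 0.0204 without neomycin replicate 1.

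Of the 6 BBSome genes 2 rose and 1 fell. Bbs2 had 19.9, 21.2 and 20.4 CPM in control and 26.5, 25.4 and 25.1 CPM after neomycin. The samples of each group were within a narrow range and the groups apart (log2 fold change 0.33, SE 0.08, adjusted p = 0.0118, edgeR). Bbs5, which binds phosphoinositides of the membrane, had 11.4, 14.1 and 14.3 CPM in control and 15.6, 16.9 and 17.7 CPM after neomycin. Control replicate 1 was the lowest (log2 fold change 0.34, SE 0.11, adjusted p = 0.0394, edgeR), and the adjusted p was 0.134, 0.0664, 0.116 and 0.127 without control replicate 1, control replicate 2, neomycin replicate 2 and neomycin replicate 3. Bbs1, the subunit that recognizes cargo and the gene most often mutated in the human syndrome (19:4886878-4906628, minus strand), had 19.7, 16.4 and 16.2 CPM in control and 14.5, 12.2 and 10.9 CPM after neomycin. It moved against the other two, 1.39-fold lower without overlap (log2 fold change -0.48, SE 0.12, adjusted p = 0.0133, edgeR). Without control replicate 1, neomycin replicate 2 or neomycin replicate 3 its adjusted p was 0.0542, 0.0588 or 0.0560. Bbs7, Bbs4 and Bbs9 had log2 fold changes of 0.17, 0.10 and 0.09 and did not pass, with adjusted p from 0.296 to 0.587. Neither did Bbs10 and Bbs12, chaperonin-like proteins that help to assemble the BBSome, at 0.14 and -0.11 (adjusted p = 0.473 and 0.559, edgeR).

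The fold change of genes depended on their length in these samples, and transport genes and dyneins differ in length. The summed exon length had a median of 4.12 kb over the transport genes and 14.5 kb over the dyneins, with 12.8 to 26.8 kb for the tested heavy chains. The trend over all genes tested ran from a log2 fold change of 0.25 at the length of Ift20 to -0.22 at that of Ift80, and from -0.22 to -0.31 over the heavy chains. With this trend removed from each sample, Dnah8 was at -1.87 (adjusted p = 0.000280), Dnaic2 at -0.86 (adjusted p = 0.00424), Dnah7b at 1.18 (adjusted p = 0.00637) and Bbs1 at -0.35 (adjusted p = 0.0355, edgeR). Ift27, Ift46, Bbs2 and Ift81 were higher in that fit, and Ift20, Ift43, Ift74, Bbs5 and Ift172 no longer passed. Ift20 moved from 0.30 to 0.05, and Ift43 from 0.31 to 0.08. In all, 4 transport genes were higher and 1 lower, and 1 dynein was higher and 2 lower after the correction. That is 5 of 22 transport genes (22.7%) and 3 of 15 dyneins, beside 23.5% of all genes in the same fit, 10.4% higher and 13.1% lower. With both directions together, the share of transport genes that passed was no longer above that of all genes. By direction, the 4 of 22 higher stayed above the 10.4% of all genes and the 1 of 22 lower was below the 13.1%.

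**Figure D3:**
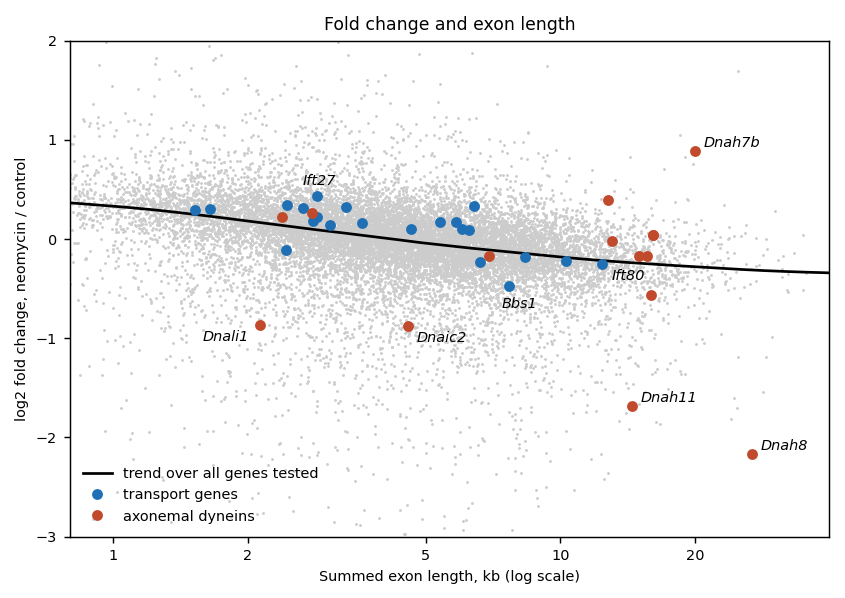
Log2 fold change (neomycin over control, y axis) against summed exon length in kb (x axis, log scale) of the 22 transport genes (blue), the 15 tested dyneins (red) and the other genes tested (grey, genes outside the axes not drawn), with the lowess trend over all genes as the line. Dnah8, Dnah11 and Dnaic2 lie far below the line and Dnah7b above it, while Ift20 and Ift43, the shortest transport genes, lie close to it.

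Per length, the transport genes were far above the dynein heavy chains. In RPKM, the CPM divided by the summed exon length in kb, the control means of the transport genes had a median of 5.74, from 1.74 for Bbs7 to 34.5 for Ift20. The tested dyneins had a median of 0.112, from 0.0124 for Dnah10 to 15.1 for Dnal4. Among the dyneins, the light chains Dnal4 and Dnal1 were at 15.1 ± 1.8 and 4.44 ± 0.33 RPKM, the intermediate chains Dnaic1 and Dnaic2 at 1.08 ± 0.056 and 0.940 ± 0.020 RPKM, the light intermediate chain Dnali1 at 0.254 ± 0.15 RPKM, and the 3 highest heavy chains at 0.537 ± 0.033 RPKM for Dnah1, 0.162 ± 0.021 RPKM for Dnah8 and 0.112 ± 0.0086 RPKM for Dnah9 (SD, n = 3 each). After neomycin Dnah8 was at 0.0360 ± 0.0081 RPKM, below Dnah9 at 0.0759 ± 0.020 RPKM and Dnah7b at 0.106 ± 0.021 RPKM, which overlap each other within 1 SD. Dnah5, Dnah7a, Dnah10, Dnah11 and Dnah6 stood at or under 0.0442 RPKM in control.

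**Figure D4:**
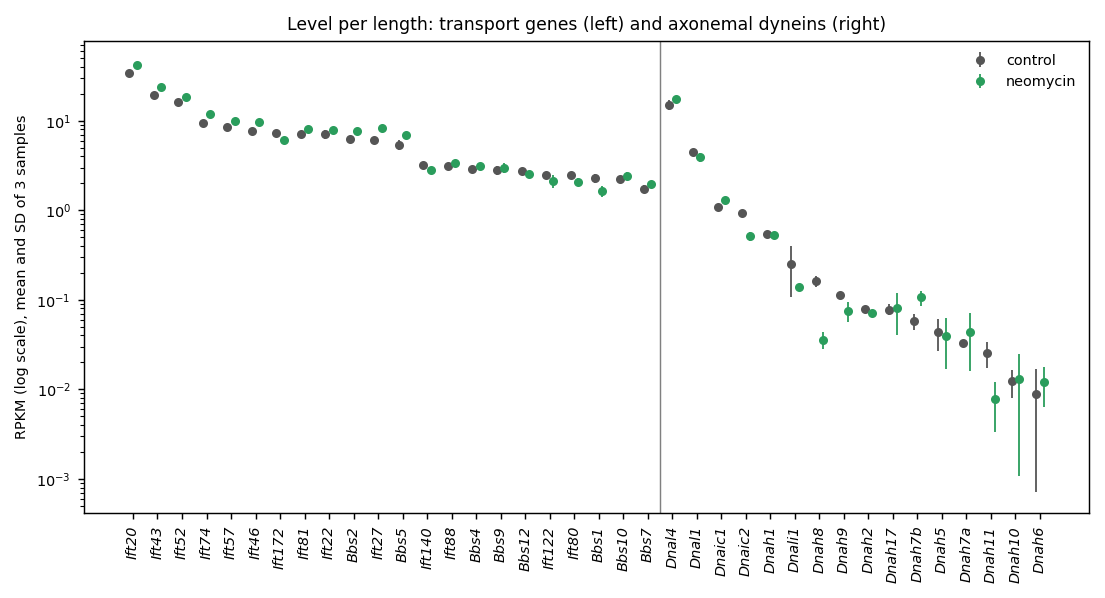
Level per length in RPKM (y axis, log scale) of the 22 transport genes and the 16 dyneins (x axis, in the order of their control means within each class), with the mean and SD of the 3 control (grey) and the 3 neomycin (green) samples. Transport genes lie above 1 RPKM and all heavy chains below it, and the 2 groups stand furthest apart for Dnah8 and Dnah11.

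Other ciliary genes were taken as lists, to be read beside the 29.0% of all genes that passed, 12.9% higher and 16.1% lower. Of 16 further subunits of the IFT trains and the BBSome 3 rose and 1 fell (25.0%), and of 14 genes of the transport motors, the kinesins and cytoplasmic dynein that pull the trains, 5 rose and 1 fell (42.9%). Their largest log2 fold changes had a size of 0.43 and 0.47, under a fold change of 1.5, and the median log2 fold changes were 0.17 and 0.11. After the length correction 2 of the 16 subunits were higher and 0 lower, and 2 of the 14 motor genes higher and 1 lower. In that fit 23.5% of all genes passed, and the medians of these lists were 0.12 and 0.015. Of 11 tested dynein assembly factors, which fold the arms in the cytoplasm, 0 passed with edgeR, DESeq2 or limma-voom, with a median log2 fold change of -0.09, and 1, 2 and 2 of them were lower at an unadjusted p under 0.05 by these tools. Of 11 tested genes for docking the arms and for the nexin link between doublets, 1 passed (9.09%), the docking factor Armc4. It had 0.840, 1.30 and 0.872 CPM in control and 0.490, 0.220 and 0.205 CPM after neomycin, lower in all 3 (log2 fold change -1.72, SE 0.45, adjusted p = 0.0138, edgeR).

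Of 10 tested genes for the radial spokes and the central pair, which regulate the arms, 2 rose and 2 fell, 4 of 10. The differentially expressed ones were Cfap46 (log2 fold change -1.28, adjusted p = 0.0256) and Spag6 (-0.75, adjusted p = 0.0437, edgeR), both of the central pair. Of 19 tested other axonemal proteins 3 rose and 1 fell (21.1%), with Tekt2, a tektin of the doublet wall, at 0.60 (adjusted p = 0.0153) and the adenylate kinase Ak8 at 0.89 (adjusted p = 0.0392, edgeR). Cfap46, Tekt2 and Ak8 did not pass after the length correction (adjusted p = 0.0529, 0.0836 and 0.115), with log2 fold changes of -1.13, 0.42 and 0.68. Of 23 genes of the basal body and transition zone 1 rose and 1 fell (8.70%), with B9d1, a transition zone protein, at 0.63 (adjusted p = 0.00322, edgeR).

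Among the factors that control ciliary genes, 8 were tested and 3 fell (37.5%), Foxj1, Rfx5 and Tub. Foxj1 had 20.5, 19.8 and 23.9 CPM in control and 19.0, 16.5 and 16.8 CPM after neomycin. All neomycin values were lower (log2 fold change -0.30, SE 0.10, adjusted p = 0.0466, edgeR), and after the length correction the log2 fold change was -0.41 (adjusted p = 0.00891). Rfx3 had a log2 fold change of 0.02 (SE 0.09, adjusted p = 0.891) and Rfx2 of 0.18 (SE 0.19, adjusted p = 0.526, edgeR). After the length correction these were 0.22 (adjusted p = 0.0512) and 0.30 (adjusted p = 0.278, edgeR), so neither passed. Rfx5, an RFX factor best known for driving MHC class II genes, was at -0.35 (SE 0.11, adjusted p = 0.0341, edgeR), and at -0.29 after the length correction (adjusted p = 0.0570). Tub, a tubby protein of ciliary membrane traffic counted in this list, was at -1.26 (SE 0.27, adjusted p = 0.00519, edgeR).

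Markers of other cell types are given beside the same 29.0% of all genes, 12.9% higher and 16.1% lower. The HC list, with 25 of 29 tested genes lower (86.2%), stood at -1.62 for its median log2 fold change, and no HC marker was at or under 3 counts in every sample. Of 7 tested markers of endothelium 5 fell (71.4%), of 9 of neurons 4 fell and 1 rose (55.6%), and of 8 of mesenchyme 1 rose and 3 fell, 4 of 8. Of 8 markers of macrophages 3 rose and 0 fell (37.5%), above the 12.9% of all genes that were higher, with a median log2 fold change of 0.39. After the length correction 1 of them was higher, beside 10.4% of all genes. Of 7 markers of Schwann cells 1 fell (14.3%). Of 16 SC markers 4 rose and 4 fell, 8 of 16, with a summed level of 5871 to 7131 CPM in control and 7517 to 10791 CPM after neomycin. Most of that difference was Tectb, a protein of the tectorial membrane, at 4230 ± 596 and 6445 ± 1520 CPM (SD, n = 3 each), and without it the sums were 2219 to 2343 and 2272 to 2637 CPM and overlapped. Of 16 markers of multiciliated cells, which carry many dynein arms, 7 were tested, with 1 higher and 1 lower (28.6%), and Gmnc, Cdc20b, Sntn and Ccdc153 were at or under 3 counts in every sample. Their summed level was 64.4 to 69.7 CPM in control and 68.5 to 73.8 CPM after neomycin, and the list shares Foxj1, Dynlrb2 and Rsph1 with the ciliary lists. Most of that sum was Tppp3, at 29.8 ± 1.6 and 36.9 ± 3.4 CPM, and Foxj1, at 21.4 ± 2.2 and 17.4 ± 1.3 CPM (SD, n = 3 each). These moved in opposite directions, so the sum hides both changes. The part of these cell types in the changes of the dyneins and the transport genes was not tested.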

How the data were processed

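Cochlear explants were sequenced as 3 control and 3 neomycin samples, 6 in all. The authors called bases with Casava 1.8, trimmed reads with trimmomatic 0.23, aligned them with Hisat2 to UCSC mm10 and counted them per gene with HTSeq. The values the authors deposited are raw counts per gene symbol, not normalized. The strand setting and the treatment of reads with several matches are not given in the sources used here, so overlapping or near-identical genes are uncertain. The sequencing depth was 50471116 to 66068108 counts per sample, and floors of 3 counts cover counting error only.

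Libraries were scaled by TMM and genes filtered with filterByExpr in edgeR 4.0.16 (R 4.3.3). Neomycin was compared with control by the quasi-likelihood test with Benjamini-Hochberg adjustment over all 15988 genes tested. RPKM was computed from the counts and the summed exon length of GENCODE M21, on the same build, which held 23376 symbols directly and 668 through an older symbol. DESeq2 1.42.0, limma-voom (limma 3.58.1), other scalings and filters, corrections for length and GC content (lowess, span 0.3), a replicate block, removal of genes with an overlapping gene and leaving out each sample were alternatives. The length correction had a length for 99.2% of the genes. The code was tested on simulated data. Replicates of a group differed by more than sampling noise (mean chi-square per gene 13.7 to 46.7), so each was counted. Every dynein and every transport gene with an adjusted p under 0.05 was given with its values, and genes of the other ciliary lists were named at a fold change over 1.5, with Foxj1, Rfx2 and Rfx3. Rfx5, Tectb, Tppp3 and Ocm were named after their values were seen, and the cell type lists were otherwise given by counts and sums. The genes and lists were chosen with earlier results of these data known. The lists were other transport and BBS subunits, transport motors, dynein assembly factors, docking and nexin link, radial spoke and central pair, other axonemal proteins, ciliary transcription factors, basal body and transition zone, and markers of HCs, SCs, multiciliated cells, neurons, Schwann cells, mesenchyme, macrophages and endothelium. Plots were made in Python 3.11.15 with matplotlib 3.10.9.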

Additional observations from a re-analysis of the deposited data

How the results depend on the processing

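Over the 18 alternatives, Dnah8, Dnaic2, Ift27, Ift46 and Bbs2 kept their direction and passed. Without the fold threshold, 4629 genes passed in all. With a fold change over 1.5, 0 transport genes were higher and 0 lower. The transport genes numbered 4 higher and 1 lower after the length correction, with or without the replicate block, and 1 lower under upper quartile scaling and after the GC correction. Leaving out each sample gave 3 to 10 higher and 0 to 4 lower. The fewest were higher without control replicate 2 or neomycin replicate 2. With control replicate 1, neomycin replicate 2 or neomycin replicate 3 left out, 0 were lower, and 4 with neomycin replicate 1 left out. Differentially expressed genes over all genes moved too, from 1413 with every sample kept. They numbered 1153, 1037 and 1672 with control replicates 1, 2 and 3 dropped in turn. For neomycin replicates they numbered 1476, 1132 and 1207. No share of all genes is given for these fits, so the swing is not taken as particular to transport genes. The transport median was 0.10 under total count scaling, 0.13 with the length correction and the block, and 0.13 to 0.22 with a sample left out. Of the dyneins, 2 were higher with the replicate block, with or without the GC correction, where Dnal4 joined Dnah7b, and 0 to 1 with a sample left out, with 0 without control replicate 1, neomycin replicate 1 or neomycin replicate 2. Leaving out a sample gave 2 to 3 lower. Among dyneins that no other gene overlaps, 1 was lower and the median was 0.23, from fewer genes. The dynein median was 0.084 after the length correction, 0.069 with the block added, and -0.22 to 0.0068 with a sample left out. With the longest transcript as the length, the control medians, taken per sample, moved from 5.70 to 7.27 RPKM for transport genes and from 0.0971 to 0.112 RPKM for dyneins. In the 250 bases before the start, 3 transport promoters (15.8%) held an X-box, beside 1 dynein promoter (6.25%) and 2.07% of all promoters. The arm motif was there in 4 transport promoters (21.1%), 4 dynein promoters (25.0%) and 11.8% of all promoters.

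Reversed signs occurred in dyneins that did not pass in any setting. Dnah1 was at 0.0059 with upper quartile scaling, 0.21 with the length correction, with or without the block, 0.0030 with the GC correction, 0.0044 with the block added, and -0.054 to 0.017 with a sample left out. Dnah10 was at -0.25 with limma-voom, -0.035 with total count scaling, -0.14 with the block, -0.12 with GC correction and block, and -1.01 to 0.39 with a sample left out, lowest without neomycin replicate 3. Dnah17 was at -0.12, -0.029, -0.056 and -0.049 in the same first 4 settings, and -0.27 to 0.39 with a sample left out. Dnah2 was at 0.069 with the length correction, with or without the block. Dnah5 was at 0.084 and 0.038 in these, and -0.71 to 0.21 with a sample left out. Dnah7a was at -0.15 to 0.80 with a sample left out, lowest without neomycin replicate 3. The causes were not tested. Deviations from the group means correlated at 0.165, 0.0264 and 0.0949 between samples of the same replicate number, not all over 0.1, so the numbers were not taken as pairs. Control replicate 2 correlated more with neomycin replicate 3 (0.0325) than with its own number. With the replicate block, 1465 genes were differentially expressed in place of 1413, and Dnal4, Ift52 and Ift80 passed in addition. Dnah5, Dnah7a, Dnah10, Dnah11 and Dnali1 had few counts, and their 95% intervals reached more than 1 log2 unit to each side.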
